A study of Mus musculus with 60 samples.

Results

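The nuclear genes of oxidative phosphorylation (OXPHOS), the mitochondrial pathway that turns the energy of NADH and succinate into ATP, were followed in whole blood of 60 male CD2F1 mice. The members were taken by gene name, as every gene of the study's result tables whose symbol starts with Ndufa, Ndufb, Ndufc, Ndufs or Ndufv and a digit, is Sdha, Sdhb, Sdhc or Sdhd, or starts with Uqcr, with Atp5, or with Cox and the digit and letter of a numbered cytochrome c oxidase subunit. This gave 79 of the 49315 genes counted, with 37 in complex I, 4 in complex II, 8 in complex III, 14 in complex IV and 16 in complex V. The rule used no measured value. All 79 are annotated as protein coding and all lie in the nuclear genome, on 19 chromosomes.

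The mice formed 10 groups of 6, aged 5 to 6 weeks when bought. BIO 300 is an oral powder of synthetic genistein as an amorphous solid dispersion, and it was given by mouth at 50, 100 or 200 mg/kg (Low, Med and High in the labels) or as vehicle (water, methylcellulose and polyvinylpyrrolidone) in 12 doses over 6 days. Without irradiation, blood was drawn 24 h (Day 0) or 48 h (Day 1) after the last dose from different mice, giving vehicle, 50, 100 and 200 mg/kg groups on each day. The remaining groups received vehicle or 200 mg/kg, then total-body irradiation (TBI) with 9.2 Gy of 60Co gamma rays on Day 0, and were bled 24 h later, on Day 1. Each bleed was terminal, so every mouse was sampled a single time, and the mice were housed 3 per cage.

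OXPHOS is carried out by complexes in the inner mitochondrial membrane. Complex I (NADH dehydrogenase) and complex II (succinate dehydrogenase) pass electrons to ubiquinone, complex III (the cytochrome bc1 complex) hands them to cytochrome c, complex IV (cytochrome c oxidase) gives them to oxygen, and complex V (ATP synthase) makes ATP from the proton gradient that complexes I, III and IV build. Apart from complex II, which is encoded in the nucleus alone, each complex also holds subunits made from mitochondrial DNA. In blood, mature red cells lack mitochondria, while reticulocytes, platelets and white cells hold them.

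The promoters of OXPHOS genes are known for binding sites of NRF1, the ETS family factor GABP, YY1 and Sp1. A RefSeq promoter (GRCm38.p6, 250 bases before to 50 after the start) was found for 67 of the 79 members, and each was searched on both strands for the letters CGCATGCG (NRF1), CCGGAAG (ETS), AAGATGGC (YY1) and GGGCGG (Sp1) (no set of letters contains another, and the NRF1 letters read the same on both strands). The NRF1 letters were in 13.4% of member promoters and in 2.07% of the 27025 genes of the table, the ETS letters in 23.9% and 9.93%, the YY1 letters in 14.9% and 3.19%, and the Sp1 letters in 40.3% and 38.2%. The promoter of 1 gene per complex is printed here, 5′ to 3′ on the strand of the gene and with the motif letters in capitals, for genes whose levels are described further on; they were chosen after their values and motifs had been seen. Ndufs4 lies on chr13:114388045-114388344 (minus strand) and holds the YY1 letters, Sdhb on chr4:140961021-140961320 (plus strand) the ETS letters and 3 copies of the Sp1 letters, and Uqcr11 on chr10:80406772-80407071 (minus strand) the ETS and NRF1 letters. Cox8a lies on chr19:7217567-7217866 (minus strand) and holds 2 copies of the ETS letters, and Atp5e on chr2:174464052-174464351 (minus strand) holds the ETS letters and 2 copies of the Sp1 letters.
Ndufs4: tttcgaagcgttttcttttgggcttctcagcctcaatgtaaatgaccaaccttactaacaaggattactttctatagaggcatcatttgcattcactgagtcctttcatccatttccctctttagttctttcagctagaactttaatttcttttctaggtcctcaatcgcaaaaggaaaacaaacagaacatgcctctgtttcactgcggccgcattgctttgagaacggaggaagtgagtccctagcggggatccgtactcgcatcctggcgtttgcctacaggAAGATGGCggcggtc
Sdhb: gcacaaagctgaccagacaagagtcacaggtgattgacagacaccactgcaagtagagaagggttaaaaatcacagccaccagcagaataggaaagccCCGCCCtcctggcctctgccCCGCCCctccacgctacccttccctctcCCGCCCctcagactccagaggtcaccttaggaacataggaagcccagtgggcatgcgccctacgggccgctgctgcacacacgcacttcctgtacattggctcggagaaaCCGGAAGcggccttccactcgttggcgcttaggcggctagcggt
Uqcr11: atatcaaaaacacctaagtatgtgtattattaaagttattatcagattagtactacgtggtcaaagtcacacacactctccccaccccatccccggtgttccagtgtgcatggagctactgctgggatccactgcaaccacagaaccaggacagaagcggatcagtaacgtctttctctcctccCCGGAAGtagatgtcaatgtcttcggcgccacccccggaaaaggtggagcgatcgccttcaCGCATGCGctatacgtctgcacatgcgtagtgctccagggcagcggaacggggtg
Cox8a: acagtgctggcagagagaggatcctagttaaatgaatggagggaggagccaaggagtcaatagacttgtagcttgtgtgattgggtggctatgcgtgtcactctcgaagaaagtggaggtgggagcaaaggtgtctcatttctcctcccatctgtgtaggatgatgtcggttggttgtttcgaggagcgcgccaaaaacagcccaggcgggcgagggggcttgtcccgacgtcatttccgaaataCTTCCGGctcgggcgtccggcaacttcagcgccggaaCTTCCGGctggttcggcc
Atp5e: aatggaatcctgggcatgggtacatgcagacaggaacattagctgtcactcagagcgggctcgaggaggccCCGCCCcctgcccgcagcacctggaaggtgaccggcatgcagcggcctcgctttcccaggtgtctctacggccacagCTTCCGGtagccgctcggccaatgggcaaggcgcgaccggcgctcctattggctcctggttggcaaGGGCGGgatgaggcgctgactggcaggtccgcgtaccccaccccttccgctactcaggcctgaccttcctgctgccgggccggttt
A match of letters is a description and not a binding site. Of the members that were higher than vehicle on Day 1 at both 100 and 200 mg/kg, 32 had a promoter, and the ETS letters were in 28.1% of them and in 20% of the other 35 members. For NRF1 these shares were 15.6% and 11.4%, for YY1 15.6% and 14.3%, and for Sp1 43.8% and 37.1%. By complex, the YY1 letters were in 7 of 32 promoters of complex I and 3 of 15 of complex V, and in none of the 20 promoters of complexes II, III and IV.

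The libraries held 15099415 to 45589415 counts, and the members took 0.159% to 0.998% of them, with a median of 0.247%. Of the 79 members, 55 had a mean of at least 10 CPM (counts as a share of the library, scaled with TMM factors over all 60 mice). Markers of platelets (8 of 8), erythroid cells (10 of 10), B cells (8 of 8), T cells (8 of 8), monocytes (6 of 6) and neutrophils (7 of 8) had a median above 1 CPM. In 11 mice at least 10 of 15 hepatocyte genes exceeded 10 CPM. Among them, mouse 17 of the vehicle Day 0 group reached 16200 CPM in the summed hepatocyte genes. Mice 49 and 51 of the vehicle+TBI group reached 10950 and 39490 CPM. Mouse 57 of the 200 mg/kg+TBI group reached 14630 CPM, together with 4410 CPM of muscle genes. The rule did not split the mice cleanly by this sum. Mouse 39 of the 100 mg/kg Day 1 group met it at 356 CPM, while mouse 53 of the vehicle+TBI group did not at 392 CPM. The main counts are given with and without the 11 mice. Total RNA of a blood sample was read in bulk, so fewer cells of a type and less RNA per cell cannot be told apart.

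**Figure D1:**
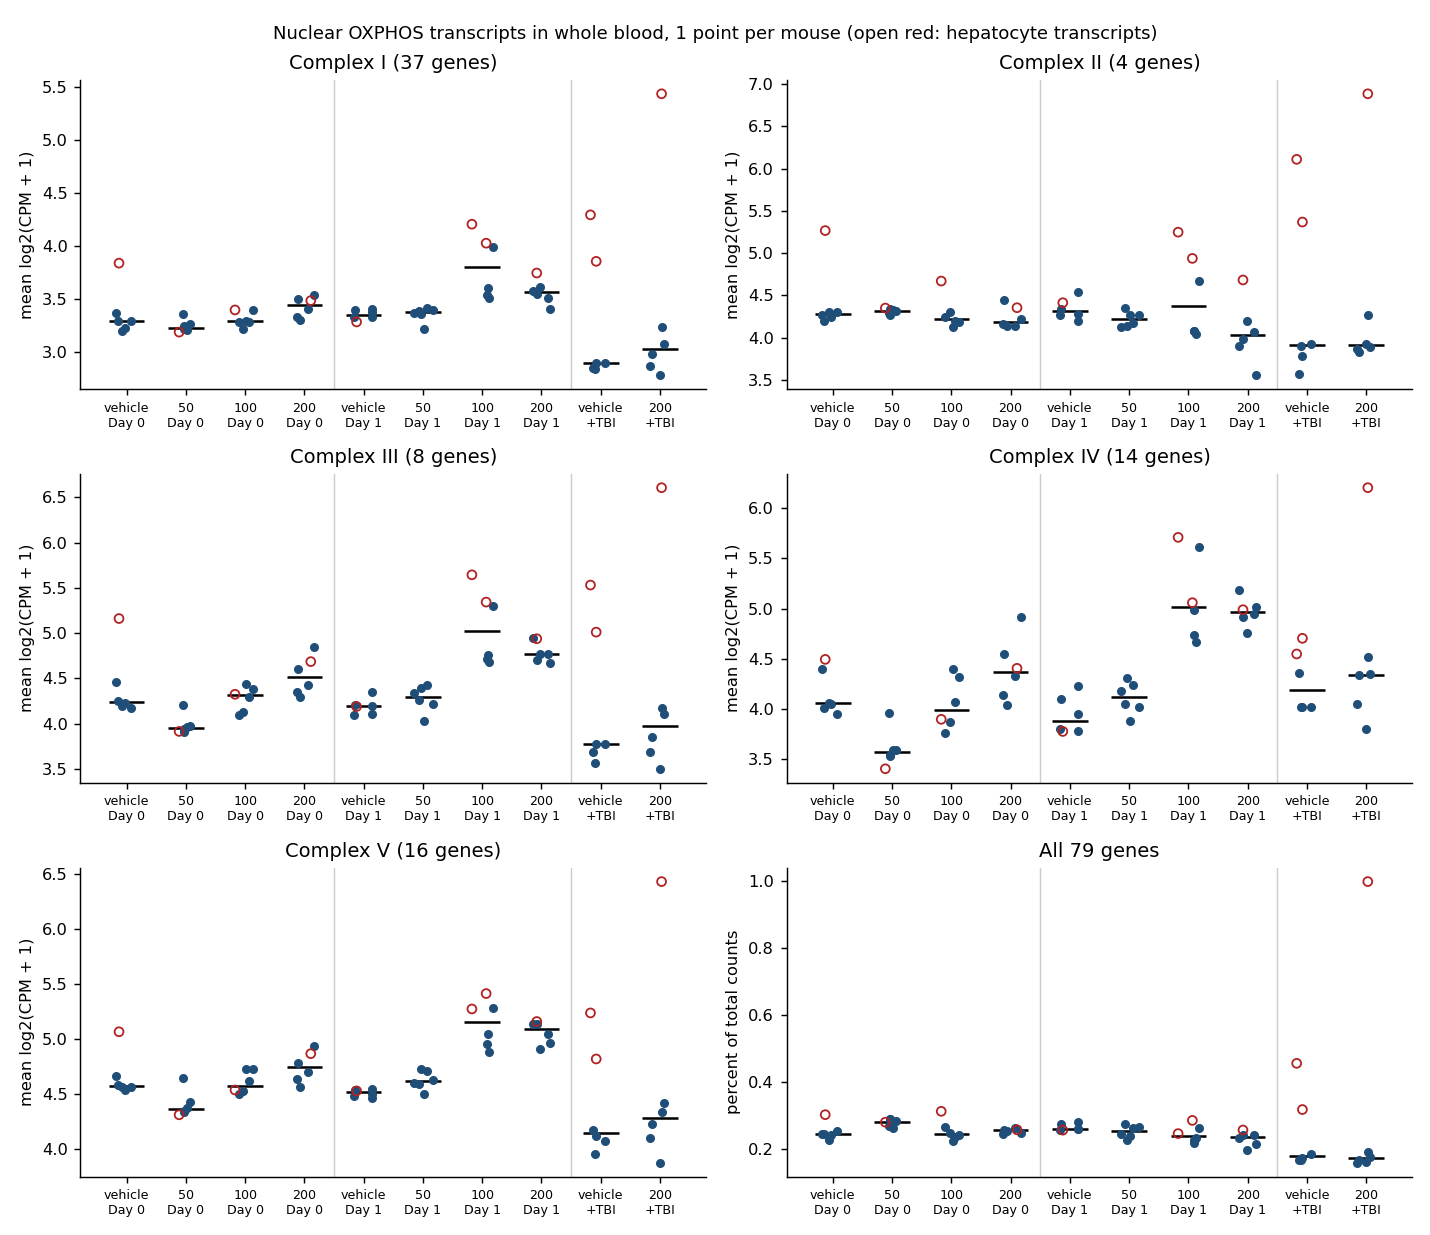
Mean log2(CPM + 1) over the genes of each complex (y axis) in every mouse, by group (x axis, BIO 300 dose in mg/kg and day), with the share of total counts taken by all 79 genes in the last panel; black bars are group medians and open red points are the 11 mice with hepatocyte transcripts. With these TMM-scaled values, the means of complexes III, IV and V stood above every vehicle Day 1 mouse in all mice given 100 or 200 mg/kg on Day 1. Single open points stood far above their group after TBI.

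Per kilobase of exon, the catalytic beta subunit of ATP synthase, Atp5b, had the highest level in the 12 vehicle mice without TBI, with a median of 118 CPM per kb (77.6 to 198). Cox8a, a small structural subunit of complex IV, followed with 102 CPM per kb, then Cox6a1 with 54.2, Ndufa1 with 50.8, Cox6b1 with 45.7 and the alpha subunit Atp5a1 with 40.8 CPM per kb. The ranges of neighbours in this order overlapped. Subunits of the same enzyme were far apart, since Atp5b and Atp5a1, which alternate in the catalytic ring of ATP synthase, differed by a median log2 ratio of counts of 1.82 in the vehicle Day 1 mice. The lowest levels belonged to Ndufa4l2, a hypoxia-linked paralogue of Ndufa4, with 0.0446 CPM per kb, and to Cox6a2, the heart and muscle isoform of Cox6a1, with 0.411 CPM per kb.

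On Day 1, 100 mg/kg was compared with vehicle. By edgeR's quasi-likelihood test with Benjamini-Hochberg adjustment over all genes, 47 of the 79 members were higher and 0 lower, against 25% and 40.6% of all 23699 genes tested. In the same test 52 members had an unadjusted p under 0.05. The share of all genes under that rule is not given here, so this count is not read as particular to the members. The median log2 fold change was 0.61 over the members and -0.38 over all genes. Without mice 29, 37 and 39, which held hepatocyte transcripts, 38 members were higher and 4 lower, beside 25.6% and 39.5% of all genes, with medians of 0.38 and -0.45. At 200 mg/kg 37 members were higher and 6 lower, against 23.6% and 39.9% of all genes, with medians of 0.23 and -0.48, and without mice 29 and 43 the counts were 35 and 11, beside 25.1% and 42.6%. Both doses were set against the same 6 vehicle mice, and by the study's stricter rule for differentially expressed genes (DEGs; absolute log2 fold change over 1) 26 members passed upward and 0 downward at 100 mg/kg, beside 18.2% and 30.6% of all genes, and 24 upward and 1 downward at 200 mg/kg, beside 17.3% and 30.5%. All 37 members that were higher at 200 mg/kg were higher at 100 mg/kg, and 10 more were higher at 100 mg/kg alone.

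These directions depend on how the libraries are scaled. Scaling by total counts in place of TMM shifted the median of all genes by -1.38 at 100 mg/kg and by -1.48 at 200 mg/kg, and then 100 mg/kg had 12 members higher and 51 lower (7.72% and 68.5% of all genes), and 200 mg/kg had 10 higher and 54 lower (6.63% and 71.2%). Relative to the median of all genes the members stood 0.99 higher on the log2 scale at 100 mg/kg with TMM and 0.96 with total counts, and 0.71 higher at 200 mg/kg with either. Atp5b, Atp5e, Cox5a, Cox6b2, Cox8a, Ndufa1, Ndufa3, Ndufa4 and Uqcr11 were higher under both scalings at both doses, as were Cox6b1, Ndufa2 and Ndufs4 at 100 mg/kg and Atp5h at 200 mg/kg. The composition of the libraries moved with these groups: Gm26917, a noncoding gene, took 5.32% to 8.77% of the counts in vehicle Day 1 mice, 0.134% to 0.454% in mice given 100 mg/kg and 0.0562% to 1.46% in those given 200 mg/kg, and haemoglobin genes took 8.30% to 12.4%, 14.0% to 22.5% and 10.8% to 22.1%.

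**Figure D2:**
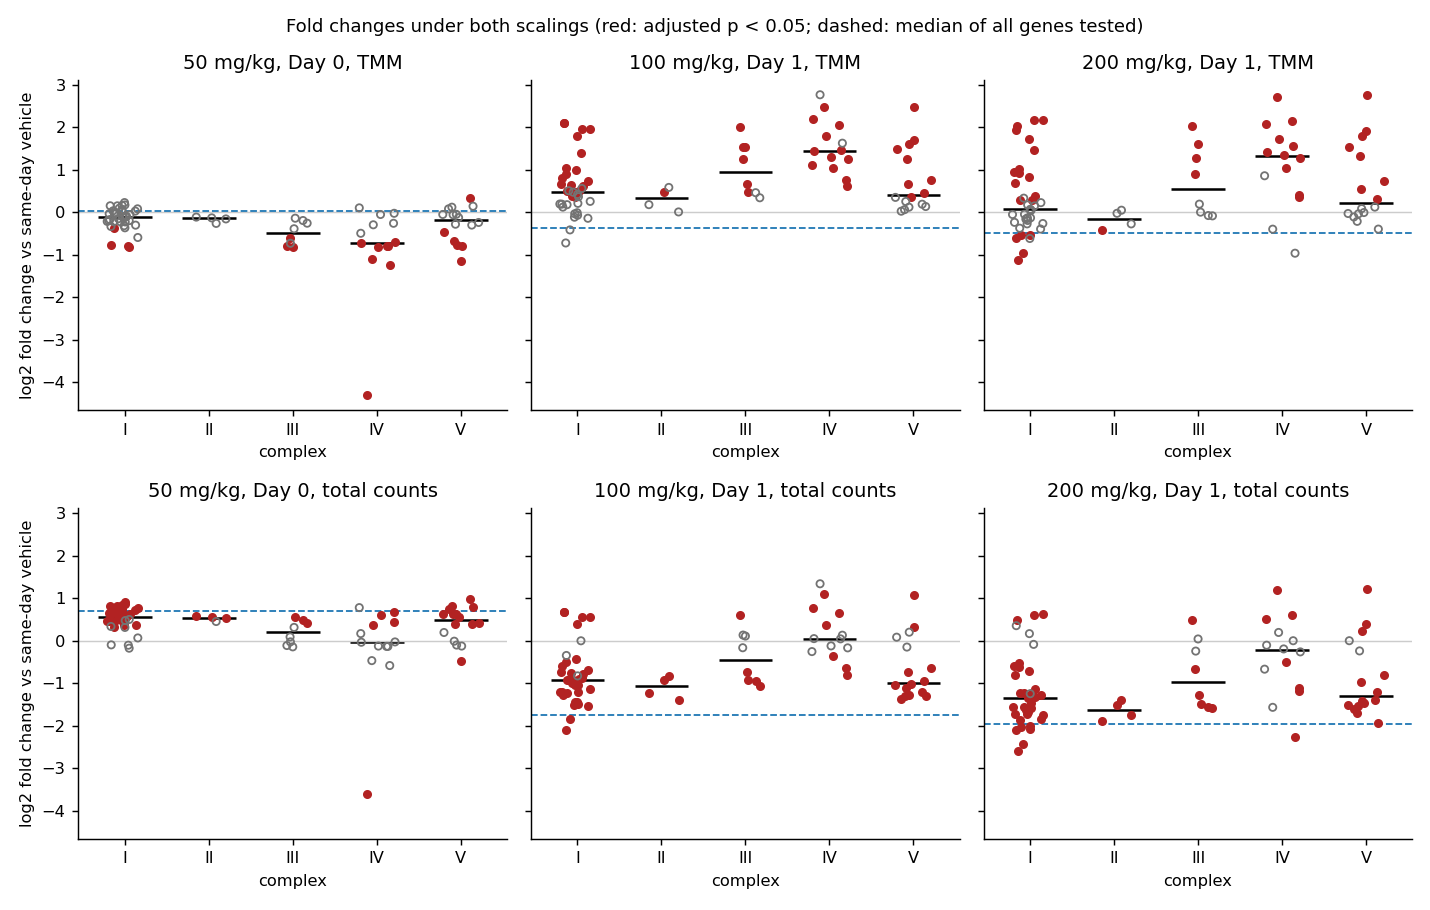
Log2 fold change against same-day vehicle (y axis) of every member, by complex (x axis), for 50 mg/kg on Day 0 and 100 and 200 mg/kg on Day 1 (columns), with TMM scaling (top) and total-count scaling (bottom); filled red points passed an adjusted p under 0.05, black bars are medians of the complex and the dashed line is the median of all genes tested. The median of complex IV was the highest at 100 and 200 mg/kg and the lowest at 50 mg/kg under either scaling.

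Complex IV had the highest median of the complexes at both doses, with TMM and with total counts. At 100 mg/kg 12 of its 14 members were higher and 0 lower, with a median log2 fold change of 1.45, and at 200 mg/kg 11 were higher and 0 lower, with 1.32. With total counts 4 were higher and 3 lower (median 0.05) and then 3 and 4 (-0.23). Its mean log2(CPM + 1) was 3.77 to 4.22 in vehicle mice (median 3.88), 4.67 to 5.71 at 100 mg/kg (median 5.02) and 4.76 to 5.18 at 200 mg/kg (median 4.97), so neither dose group overlapped vehicle. Cox8a was at 48.2 to 65.8 CPM in vehicle mice (median 59.1), 184 to 274 CPM at 100 mg/kg (242) and 183 to 308 CPM at 200 mg/kg (257), and every treated mouse stood above every vehicle mouse. Its log2 fold changes were 2.06 ± 0.11 (SE; edgeR's quasi-likelihood test, Benjamini-Hochberg adjusted p = 8.841e-09) and 2.16 ± 0.14 (adjusted p = 2.257e-08), and with total counts 0.65 and 0.60. Cox5a, a matrix-side subunit, went from 17.6 to 24.3 CPM in vehicle mice (median 18.3) to 60.4 to 121 CPM (83.1) and 61.5 to 99.7 CPM (78.4), again without overlap.

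Cox6b1 and Cox6b2 are paralogues of a subunit on the intermembrane side, and Cox6b2 is best known from testis. Cox6b2 had 12.5 to 26.6 CPM in vehicle Day 1 mice (median 16.6), 71.1 to 115 CPM at 100 mg/kg (95.6) and 69.3 to 130 CPM at 200 mg/kg (123). Its log2 fold changes of 2.48 ± 0.18 and 2.71 ± 0.21 (SE) were the largest of complex IV among members with at least 10 CPM, with adjusted p of 5.442e-08 and 6.09e-08 in edgeR's quasi-likelihood test with Benjamini-Hochberg adjustment. Cox6b1 rose as well, by 1.78 and 1.73. Within a mouse, the log2 ratio of Cox6b2 to Cox6b1 counts was -1.28 to -0.36 in vehicle Day 1 mice and -0.38 to -0.08 at 100 mg/kg, which overlapped at the edge. The supercomplex factor Cox7a2l rose by 1.04 and 1.05, while Cox7c rose by only 0.61 and 0.36 and Cox5b by 0.77 and 0.40.

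Complex V was split between its subunits. With TMM 9 of its 16 members were higher at 100 mg/kg and 8 at 200 mg/kg, with none lower at either dose and medians of 0.41 and 0.22. With total counts 2 were higher and 11 lower at 100 mg/kg (median -0.98), and 3 and 11 at 200 mg/kg (-1.29). The values that follow are with TMM. Atp5e, the small epsilon subunit of the central stalk, had 22.8 to 35.1 CPM in vehicle mice (median 26.2), 111 to 268 CPM at 100 mg/kg (131) and 120 to 226 CPM at 200 mg/kg (185). Its log2 fold changes were 2.49 ± 0.22 and 2.76 ± 0.17 (SE), with adjusted p of 2.763e-07 and 1.833e-08 in edgeR's quasi-likelihood test with Benjamini-Hochberg adjustment. Atp5b had 329 to 705 CPM in vehicle mice (median 417), 1102 to 1889 CPM at 100 mg/kg (1331) and 1073 to 2058 CPM at 200 mg/kg (1652), and the groups did not overlap. Atp5a1, its partner in the catalytic head, rose by 0.45 and 0.31 on the log2 scale, against 1.71 and 1.92 for Atp5b, with 93.5 to 151 CPM in vehicle mice and 132 to 204 CPM at 100 mg/kg. Without the mice with hepatocyte transcripts Atp5a1 did not pass at either dose (0.35 and 0.29; adjusted p = 0.05746 and 0.08355 in edgeR's quasi-likelihood test with Benjamini-Hochberg adjustment). The genes of the proton-driven c ring, Atp5g1, Atp5g2 and Atp5g3, did not pass the test at either dose, with log2 fold changes of 0.06, 0.19 and 0.25 at 100 mg/kg.

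In complex III, 6 of 8 members were higher at 100 mg/kg and 4 at 200 mg/kg with TMM, with medians of 0.96 and 0.54. With total counts 1 was higher and 4 lower at 100 mg/kg (median -0.45), and 1 and 5 at 200 mg/kg (-0.97). The values that follow are with TMM. The small subunits led: Uqcr11 had 10.5 to 15.0 CPM in vehicle mice (median 14.0), 42.0 to 61.5 CPM at 100 mg/kg (56.1) and 41.9 to 65.2 CPM at 200 mg/kg (49.8), and its log2 fold changes were 2.01 and 2.02. Uqcrh, the hinge protein, rose by 1.53 and 1.61, Uqcrq by 1.54 and 1.29, and Uqcr10 by 1.26 and 0.89. Among the parts that do the chemistry or build the core, the Rieske iron-sulphur protein Uqcrfs1 (0.46 and -0.08) and the core protein Uqcrc2 (0.34 and -0.08) did not pass the test, and Uqcrc1 passed at 100 mg/kg alone (0.47 and 0.00). Without the mice with hepatocyte transcripts 4 members were higher at 100 mg/kg (median 0.65), and Uqcrc1 (0.19) and Uqcrb (0.28) no longer passed.

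Complex I, the largest, had 19 of 37 members higher at 100 mg/kg with TMM, while 200 mg/kg gave 14 higher and 5 lower, with medians of 0.47 and 0.07. With total counts 5 were higher and 29 lower at 100 mg/kg (median -0.93), and 3 and 30 at 200 mg/kg (-1.36). The values that follow are with TMM unless stated. Without the mice with hepatocyte transcripts 16 were higher and 4 lower at 100 mg/kg (median 0.19), the 4 lower being Ndufb2 (-1.23), Ndufb5 (-0.65), Ndufa9 (-0.56) and Ndufc2 (-0.43), and 13 higher and 9 lower at the higher dose (0.01). Among the core subunits that carry electrons, Ndufv2 and Ndufs3 were higher at 100 mg/kg, and at 200 mg/kg Ndufv2 was higher and Ndufs8 lower. The members that rose by more than a log2 fold change of 1.9 at both doses were small accessory subunits: Ndufs4 (2.10 and 1.93), Ndufa4 (2.10 and 2.03), Ndufa1 (1.97 and 2.16) and Ndufa3 (1.97 and 2.18). Ndufa4 carries a complex I name but is known today as a subunit of complex IV. Ndufs4, an accessory subunit needed for a stable complex, had 13.9 to 21.7 CPM in vehicle mice (median 17.1), 51.5 to 92.2 CPM at 100 mg/kg (67.6) and 48.0 to 77.3 CPM at 200 mg/kg (62.5), without overlap. In the opposite direction, Ndufb5 of the membrane arm had 12.1 to 13.6 CPM in vehicle mice (median 12.9), 5.79 to 13.9 CPM at 100 mg/kg (9.57) and 2.60 to 9.08 CPM at 200 mg/kg (6.28), where all 6 mice lay below vehicle. Its log2 fold change at 200 mg/kg was -0.96 ± 0.23 (SE; edgeR's quasi-likelihood test, Benjamini-Hochberg adjusted p = 0.002155), and Ndufb2 (-1.11), Ndufb4 (-0.61), Ndufc1 (-0.54) and Ndufs8 (-0.52) were lower too, and these 5 were lower under both scalings. The 6 members lower at 200 mg/kg, which include Sdhb, became 2 with edgeR's filterByExpr, 3 with upper-quartile factors, 2 or 3 without mouse 25, 26, 27, 44, 45, 47 or 48, and 12 without mouse 43, which held hepatocyte transcripts.

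Complex II, which feeds electrons from the citric acid cycle, had 1 call at each dose with TMM, while with total counts all 4 members were lower at both (medians -1.08 and -1.62). At 100 mg/kg only the membrane anchor Sdhc was higher (0.48), a call that was lost without the mice with hepatocyte transcripts (0.24; adjusted p = 0.1772 in edgeR's quasi-likelihood test with Benjamini-Hochberg adjustment), and at 200 mg/kg only the iron-sulphur subunit Sdhb was lower, by -0.43 ± 0.18 (SE; edgeR's quasi-likelihood test, Benjamini-Hochberg adjusted p = 0.047). The flavoprotein Sdha had 35.4 to 56.5 CPM in vehicle mice (median 48.9), 32.5 to 73.4 CPM at 100 mg/kg (41.4) and 24.8 to 53.9 CPM at 200 mg/kg (36.3), and the groups overlapped. Its log2 fold changes of 0.01 and -0.27 did not pass the test with TMM and were -1.39 and -1.74 with total counts.

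**Figure D3:**
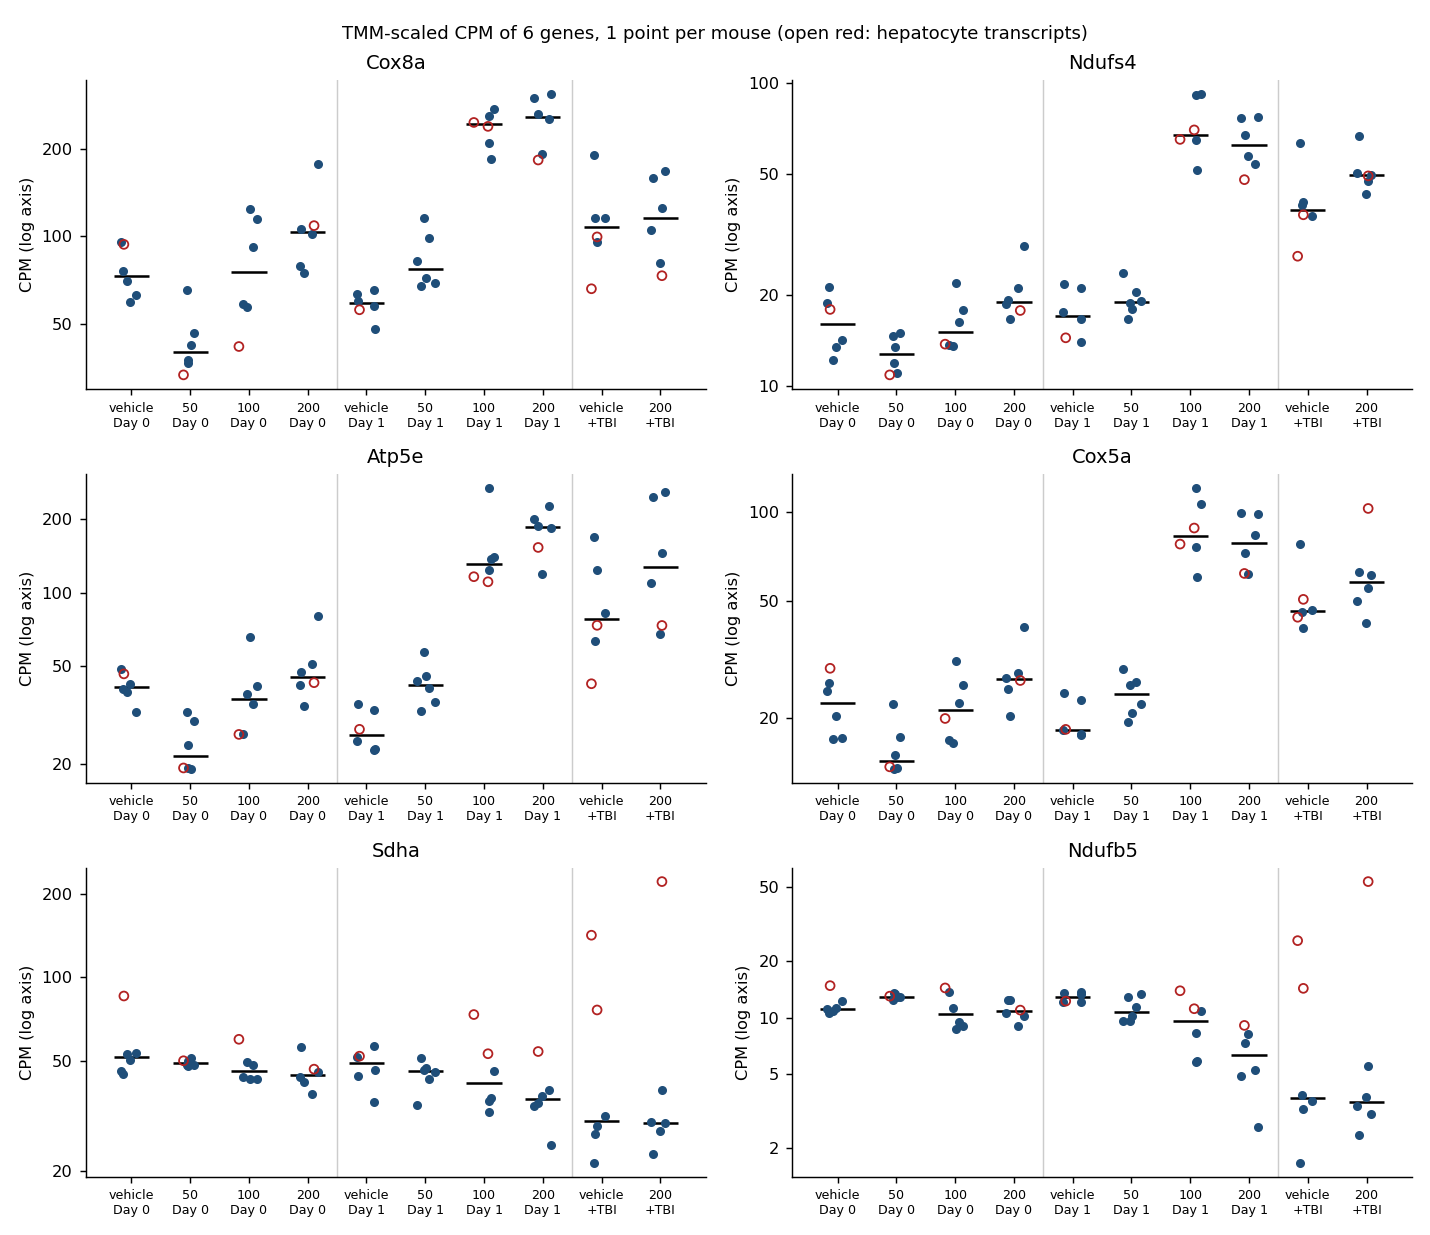
CPM (log axis) of Cox8a, Ndufs4, Atp5e, Cox5a, Sdha and Ndufb5 in every mouse, by group (x axis, dose in mg/kg and day); black bars are medians and open red points are mice with hepatocyte transcripts. Against vehicle mice without TBI, Cox8a, Ndufs4, Atp5e and Cox5a stood above all of them at 100 and 200 mg/kg on Day 1. Sdha overlapped these vehicle mice, and Ndufb5 lay below them at 200 mg/kg on Day 1.

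A ratio of counts of different genes within a mouse does not depend on the scaling. The log2 ratio of Cox8a to Sdha counts was 0.06 to 0.71 in vehicle Day 1 mice, 1.74 to 2.98 in mice given 100 mg/kg and 1.76 to 3.62 in those given 200 mg/kg, with no overlap. For Atp5b over Atp5a1 it was 1.55 to 2.22, 2.96 to 3.47 and 3.02 to 3.93, and for Ndufs4 over Ndufs1 it was -1.18 to -0.21, 0.51 to 1.92 and 0.68 to 1.79. None of these 3 ratios overlapped between vehicle and either dose, and a ratio shows unequal change without saying which gene moved. The ratios were chosen after the values had been seen and were not tested.

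**Figure D4:**
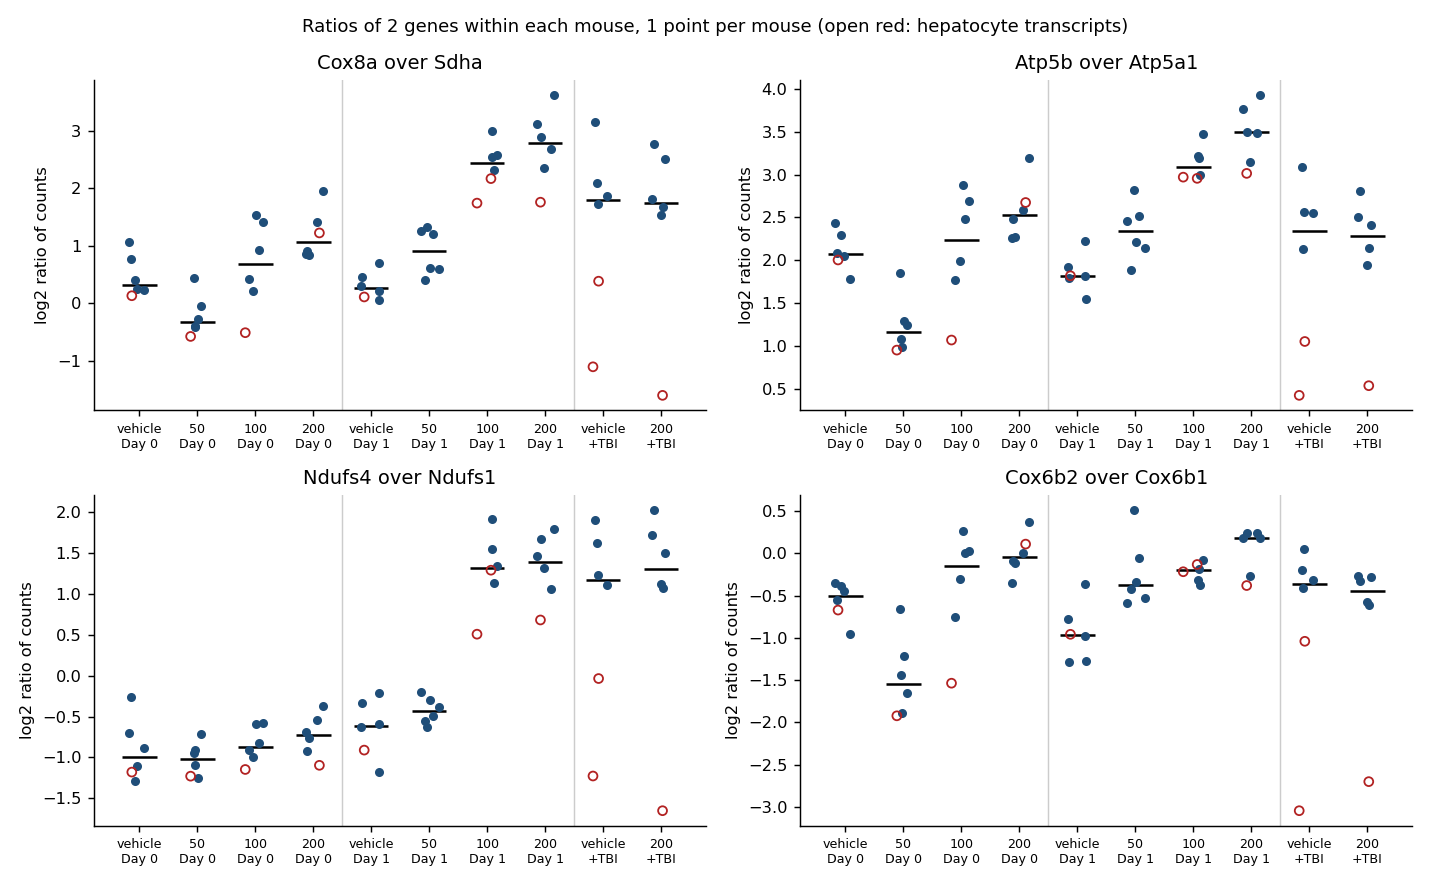
Log2 ratio of counts of 2 genes in the same mouse (y axis) for 4 gene pairs, by group (x axis, dose in mg/kg and day); black bars are medians and open red points are mice with hepatocyte transcripts. Cox8a over Sdha rose from at most 0.71 in vehicle Day 1 mice to at least 1.74 with 100 mg/kg and 1.76 with 200 mg/kg, and the open points fell low after TBI.

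At 50 mg/kg the members moved in the opposite direction and a day earlier. On Day 0, 1 member was higher and 20 were lower than vehicle by edgeR's quasi-likelihood test with Benjamini-Hochberg adjustment, against 4.21% and 9.87% of all 24485 genes tested, with a median log2 fold change of -0.20 beside 0.03 for all genes. Of the 20, 8 were in complex IV, 5 in complex V, 4 in complex I and 3 in complex III, and complex II had none. By the study's DEG rule 4 members passed downward, beside 4.38% of all genes. Of these 20 members, 18 were higher at 100 mg/kg on Day 1, a comparison that shares no mice with this one. In that comparison 25% of all genes were higher. Among the 79 members, 37 were higher there and at 200 mg/kg, and 10 more at 100 mg/kg alone. The same overlap was not counted over all genes. With total counts the median of all genes shifted by 0.66, and 50 members were higher and 2 lower, beside 49.4% and 3.61% of all genes. Relative to all genes the members differed by -0.22 with TMM and by -0.21 with total counts. Single mice weighed on these values: without mouse 17 of the vehicle group, which held hepatocyte transcripts, the median was -0.01 and 4 members were higher, and without mouse 3 or mouse 5 the lower members numbered 13. Without both mice with hepatocyte transcripts, 1 and 17, 4 members were higher and 19 lower, beside 3.4% and 9.19% of all genes, and the median was -0.03.

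Atp5b showed it most clearly, with 445 to 837 CPM in vehicle Day 0 mice (median 619) and 230 to 452 CPM at 50 mg/kg (256), where only the highest treated mouse reached the vehicle range. Its log2 fold change was -1.15 ± 0.20 (SE; edgeR's quasi-likelihood test, Benjamini-Hochberg adjusted p = 0.003153), and it was lower under both scalings. Cox6b2 fell by 1.09, Ndufa1 by 0.82, Uqcrh by 0.82, Cox7b by 0.80, Uqcr11 by 0.80, Ndufb9 by 0.79, Cox8a by 0.79 and Atp5e by 0.79 on the log2 scale. Cox8a had 59.6 to 96.0 CPM in vehicle mice (median 73.3) and 33.6 to 65.7 CPM at 50 mg/kg (40.1), and the ranges overlapped through mouse 2, the highest of the treated group. Atp5g2, a c-ring gene, was the only member that was higher (0.34, adjusted p = 0.04967 in the same edgeR quasi-likelihood test with Benjamini-Hochberg adjustment), and no member was higher with upper-quartile factors or without the low-count filter. Without mice 1 and 17 Ndufa1 did not pass (-0.64; adjusted p = 0.05486 in edgeR's quasi-likelihood test with Benjamini-Hochberg adjustment). Cox8b (-4.31) and Cox7a1 (-1.24), isoforms of muscle and brown fat, were lower at levels of at most 4.74 and 1.09 CPM, and 5 of 8 adipocyte markers were lower with them, by a median of -2.87, as were 2 of 9 muscle markers, with a median of -5.86 over the 9. Summed muscle markers were at 90.2 CPM in mouse 16 and at 2.23 to 5.18 CPM in the other vehicle mice. The part of fat and muscle transcripts in these 2 calls was not tested.

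The other dose groups had no member past the threshold. By edgeR's quasi-likelihood test with Benjamini-Hochberg adjustment, 100 and 200 mg/kg on Day 0, 50 mg/kg on Day 1, and vehicle on Day 1 against vehicle on Day 0 gave 0 members higher and 0 lower, beside 0%, 0%, 0.00829% and 0% of all genes called higher. At an unadjusted p under 0.05 there were 0, 14, 30 and 15 members, and DESeq2 called 0, 0, 12 and 4. The shares of all genes under these rules are not given here, so the counts are not read as particular to the members. At 50 mg/kg on Day 1, Cox8a had a log2 fold change of 0.54 and Atp5e of 0.63. The difference between the Day 1 and the Day 0 effect was tested itself in edgeR: 24 members had a higher effect on Day 1 and 2 a lower one at 50 mg/kg (10.5% and 7.04% of all genes; by the DEG rule 14 higher, beside 6.73%), 44 and 0 at 100 mg/kg (20.7% and 33.5%), and 32 and 3 at 200 mg/kg (18.7% and 30.2%). With total counts these turned to 3 higher and 52 lower for 50 mg/kg, 8 and 42 for 100 mg/kg, and 5 and 55 for 200 mg/kg, beside 3.02% and 48.9%, 5.51% and 60%, and 4.47% and 57.8% of all genes.

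TBI gave few calls until the mice with hepatocyte transcripts were left out. Against vehicle Day 1, 13 members were higher and 2 lower in vehicle+TBI mice by edgeR's quasi-likelihood test with Benjamini-Hochberg adjustment, beside 24.4% and 22.4% of all genes, with a median log2 fold change of 0.12. Against vehicle Day 0 the counts were 9 and 1, beside 19.6% and 16.8%, and both comparisons share the irradiated mice. Without mice 29, 49 and 51, 15 members were higher and 47 lower against vehicle Day 1, beside 27.8% and 31.6% of all genes, and the median was -0.66 beside -0.16 for all genes. Without mice 17, 49 and 51, 13 were higher and 45 lower against vehicle Day 0, beside 27.2% and 29.9%. Hepatocyte genes summed to 10950 and 39490 CPM in mice 49 and 51 and to 173 to 392 CPM in the other 4 irradiated vehicle mice.

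**Figure D5:**
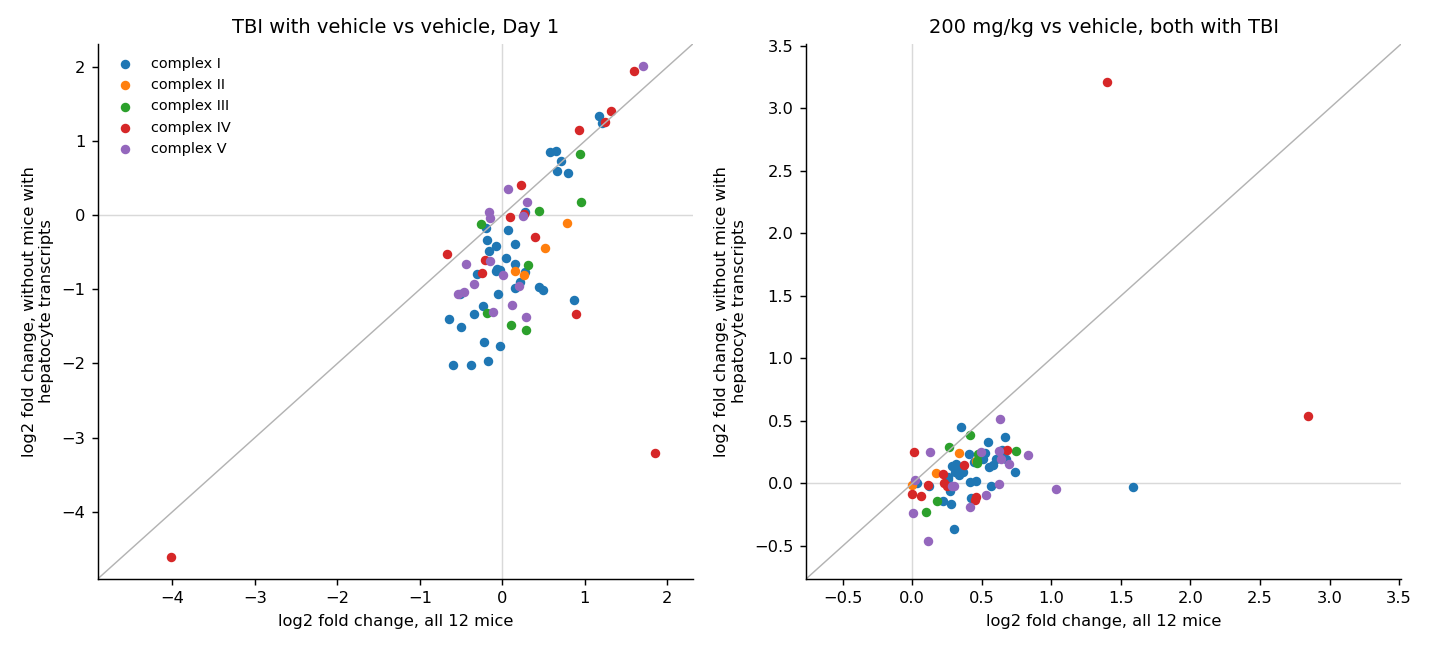
Log2 fold change of each member with all 12 mice (x axis) against the same without the mice with hepatocyte transcripts (y axis), for vehicle+TBI against vehicle Day 1 and for 200 mg/kg+TBI against vehicle+TBI; colours are complexes and the diagonal marks equal values. In the comparison of vehicle+TBI most points lay below the diagonal, with a median of 0.12 on the x axis and -0.66 on the y axis.

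The fall without these mice ran through the complexes unevenly. Against vehicle Day 1, complex I had 7 members higher and 24 lower, complex II 0 and 3, complex III 1 and 4, complex IV 5 and 6, and complex V 2 and 10. Ndufb5 had 12.1 to 13.6 CPM in vehicle Day 1 mice and a median of 3.72 CPM in vehicle+TBI mice, where mouse 51 reached 25.8 CPM; its log2 fold change went from -0.60 in the full groups to -2.02 without these mice. Uqcrfs1 went from 0.28 to -1.55, Ndufv1 from 0.49 to -1.01, Uqcrc2 from -0.18 to -1.31, Atp5d from 0.12 to -1.21 and Sdha from 0.15 to -0.75. In each of these genes mouse 51 was the highest irradiated vehicle mouse.

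Of the 13 members higher after TBI against vehicle Day 1, 12 were also higher without the mice with hepatocyte transcripts. Atp5e had 22.8 to 35.1 CPM in vehicle Day 1 mice and 42.5 to 169 CPM in vehicle+TBI mice (median 78.0), with a log2 fold change of 1.70 ± 0.29 (SE; edgeR's quasi-likelihood test, Benjamini-Hochberg adjusted p = 0.0005188), and 2.01 without the mice with hepatocyte transcripts. Ndufs4 had 13.9 to 21.7 and 26.8 to 63.2 CPM, and Cox5a 17.6 to 24.3 and 40.5 to 77.9 CPM, so that none of these 3 genes overlapped between the groups. Their log2 fold changes were 1.18 for Ndufs4, 1.32 for Cox5a, 1.25 for Cox6b1, 1.21 for Ndufa4, 1.60 for Cox6b2 and 0.93 for Cox8a, and these genes and Atp5e, 7 in all, were higher with total counts as well. Cox6c, a complex IV subunit that rose by 1.46 and 1.57 at 100 and 200 mg/kg, fell by 0.67 after TBI (adjusted p = 0.003247 in edgeR's quasi-likelihood test with Benjamini-Hochberg adjustment). Cox6a2 was lower too, at 8 to 24 counts in vehicle Day 1 mice and 0 to 1 counts in vehicle+TBI mice, a level at which the fitted log2 value of -4.02 depends on the prior count.

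BIO 300 before TBI gave no call. Between 200 mg/kg+TBI and vehicle+TBI, edgeR's quasi-likelihood test with Benjamini-Hochberg adjustment called 0 members higher and 0 lower, beside 0% of all genes, DESeq2 also called 0, and 1 member had an unadjusted p under 0.05. In the full groups 77 of 79 members had a log2 fold change above 0, and the median was 0.41. It was 0.09 over the 77 members that could be tested without mice 49, 51 and 57, and it was -0.67 without mouse 57 and 0.76 without mouse 51. Cox8a had 66.2 to 190 CPM in vehicle+TBI mice (median 108) and 73.4 to 168 CPM in 200 mg/kg+TBI mice (116), Ndufs4 26.8 to 63.2 (38.2) and 43.0 to 67.0 CPM (49.6), and Sdha 21.4 to 142 (30.3) and 23.0 to 222 CPM (29.8), all overlapping. The log2 difference of Cox8a was -0.01 with a 95% interval from its SE of -0.54 to 0.52, and that of Ndufs4 was 0.28 with an interval of -0.12 to 0.69.

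The effect of 200 mg/kg with TBI was set against its effect without TBI in a test of the difference itself. In edgeR 17 members had a lower effect with TBI and 1 a higher one, beside 12.1% and 21.9% of all genes, and 28 and 18 without the mice with hepatocyte transcripts, beside 16.5% and 33.3%. Cox6b2 differed by -2.42 ± 0.51 (SE), Cox8a by -1.94 ± 0.30, Atp5e by -1.90 ± 0.44, Ndufa3 by -1.70 ± 0.28 and Ndufa1 by -1.68 ± 0.33 on the log2 scale. With total counts 17 members were higher and 3 lower, beside 46.4% and 3.03% of all genes. The 3 lower, Atp5e, Cox6b2 and Cox8a, were lower with TMM as well, and 1 member went from lower with TMM to higher. Cox6a2, the member with a higher effect, had 5398 counts in mouse 57 and at most 1 count in every vehicle+TBI mouse.

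Other genes of the pathway moved in their own ways. The calls and log2 values here are with TMM, and those with total counts are not given. On Day 1 the mitochondrially encoded subunits were higher for 12 of 12 tested at 100 mg/kg and 9 of 11 at 200 mg/kg. Their medians were 2.22 and 1.28. Among them mt-Co1, a catalytic subunit of complex IV, rose by 2.29 and 2.21. The rises were 4.14 and 3.45 for mt-Atp6 of complex V, and 1.83 and 0.90 for mt-Nd1 of complex I. Scaling by total counts shifted the median of all genes by -1.38 and -1.48, further than mt-Nd1 rose at 200 mg/kg. Of all counts, these subunits together took 0.356% to 0.660% in vehicle Day 1 mice. Mice given 100 mg/kg held 0.630% to 1.07% and the 200 mg/kg group 0.520% to 0.718%, so both overlapped vehicle. Of 6 nuclear subunits outside the naming rule 3 were higher and 1 lower at each dose, and Cox4i1, the main isoform of a complex IV core partner, rose by 1.13 and 1.19. Of 44 assembly factors 100 mg/kg had 9 higher and 12 lower, beside 25% and 40.6% of all genes. At 200 mg/kg 9 were higher and 22 lower, beside 23.6% and 39.9%. Of 12 regulators of mitochondrial biogenesis 2 were higher and 4 lower, and 2 and 5; Ppargc1a, the coactivator of the programme, did not pass the test (0.01 and -0.86), nor did Cyc1 (0.22 and -0.54) or Cycs (0.27 and -0.52). At 50 mg/kg on Day 0, 0 of 11 mitochondrially encoded subunits were higher and 2 lower, beside 4.21% and 9.87% of all genes. Among the lower was mt-Co1 (-0.91), and Cox4i1 was lower too (-0.36). After TBI, 2 of 11 mitochondrially encoded subunits were higher against vehicle Day 1, among them mt-Atp6 (1.98), beside 24.4% of all genes.

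Markers of blood cells moved in the same comparisons, again with TMM. At 100 and 200 mg/kg on Day 1, 8 of 8 platelet markers were higher (medians 3.06 and 3.20), as were 10 of 10 erythroid (1.67 and 1.88) and 6 of 6 reticulocyte markers (1.62 and 1.82), while 8 of 8 B cell (-1.50 and -1.72) and 8 of 8 T cell markers (-1.85 and -1.77) were lower. Summed platelet markers were at 1927 to 3892 CPM in vehicle Day 1 mice, 14700 to 33220 CPM at 100 mg/kg and 14120 to 24670 CPM at 200 mg/kg, and summed T cell markers at 354 to 449, 76.5 to 163 and 46.9 to 197 CPM, with none of these groups overlapping vehicle. At 50 mg/kg on Day 0, 8 of 8 platelet (-1.01), 6 of 10 erythroid (-1.56), 5 of 6 reticulocyte (-1.41) and 2 of 8 neutrophil markers (-0.35) were lower. In the same comparison 4 of 8 B cell markers were higher (0.40), and no T cell (0.44), NK cell (0.15) or monocyte marker (0.22) passed. After TBI against vehicle Day 1, 8 of 8 platelet (2.57) and 7 of 8 neutrophil markers (2.78) were higher, 3 of 6 reticulocyte markers were higher (0.42), 0 of 10 erythroid markers passed, and 8 of 8 B cell (-3.49), 8 of 8 T cell (-2.43) and 4 of 5 NK cell markers (-1.17) were lower. Of the remaining lists, monocyte markers were lower for 5 of 6 and 3 of 6 at 100 and 200 mg/kg, NK cell markers for 2 of 5 and 0 of 5, and neutrophil markers were higher for 3 of 8 at each dose. After TBI, 2 of 15 hepatocyte (4.32), 1 of 8 adipocyte (2.43) and 5 of 8 muscle markers (2.02) were higher. No marker of platelets, erythroid cells, reticulocytes, B cells, T cells or neutrophils was below 1 CPM in every mouse. The part of the cell make-up in the member results was not tested.

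The members differed in how their levels ran with these markers across the 60 mice, which share treatment groups and scaling factors. The correlation with the summed platelet markers, given as a description on the log2 scale, exceeded 0.5 for 22 members, and was highest for Atp5e (0.97), Ndufs4 (0.95), Cox5a (0.93), Cox6b1 (0.93), Cox6b2 (0.92) and Ndufa4 (0.91). It was lowest for Ndufb2 (-0.71), Ndufb5 (-0.68) and Ndufs8 (-0.54). Over the 49 mice without hepatocyte transcripts it was 0.97 for Cox6b1 and Atp5e, and the lowest were Ndufb2 (-0.90), Ndufb5 (-0.85), Ndufa9 (-0.80) and Sdha (-0.80, from -0.44), ahead of Ndufs8 (-0.76). With the summed erythroid markers, which themselves ran with the platelet markers (0.73), it was highest over the 60 mice for Ndufa1 (0.92), Cox8a (0.91) and Atp5l (0.91). By complex the medians with platelet and with erythroid markers were 0.52 and 0.65 for complex IV, 0.13 and 0.16 for III, -0.11 and -0.16 for I, -0.14 and -0.10 for V, and -0.18 and -0.34 for II. The members whose levels ran least with the other members, among those with at least 10 CPM, were Cox6b2 (mean correlation 0.10), Atp5e (0.14) and Cox7a2l (0.17), all 3 higher at both doses on Day 1.

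The shortest members had the largest median changes at 100 and 200 mg/kg on Day 1 and at 50 mg/kg on Day 0 with TMM. By exonic length, the shortest 26 members (360 to 1108 bases) had a median log2 fold change of 1.25 at 100 mg/kg and 0.91 at 200 mg/kg, the middle 27 of 0.51 and 0.12, and the longest 26 (2147 to 8086 bases) of 0.46 and -0.01. At 100 mg/kg 18, 14 and 15 of them were higher and 0 lower, and at 200 mg/kg 15, 13 and 9 were higher and 0, 3 and 3 lower. At 50 mg/kg on Day 0 these medians were -0.38, -0.05 and -0.14, with 12, 5 and 3 members lower. Length went partly with complex. Complex IV had the shortest median length (1026 bases, range 360 to 3567) and complex II, with 4 members, the longest (2744 bases, range 1231 to 4126). These ranges overlapped, and the parts of length and complex were not tested.

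Of the 79 members, 23 passed the test in none of the 10 comparisons of group pairs. The counting is not stated to use strand, so members that overlap a gene on the other strand, such as Atp5j with Gabpa and Atp5a1 with Haus1, could share reads with it, and the same holds for Ndufb8 with Gm20538, Ndufb9 with Gm49356 and Atp5o with a further Atp5o entry on the same strand. The labels name poly(A) selection and the methods a total RNA kit that removes ribosomal and globin RNA, which bears on how haemoglobin and noncoding counts scale the libraries.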

How the data were processed

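Whole blood RNA of 60 mice was sequenced. Per the submitters' processing notes and the methods, the authors used Trimmomatic 0.36 for trimming, STAR 2.5.2b for alignment (genome GRCm38) and Subread 1.5.2 for counting, and deposited raw counts per gene and mouse; the depth was 15099415 to 45589415 counts, and for low genes counting error adds to the spread between mice. The result tables that the authors deposited also hold normalized values (a signal), log2 fold changes and p-values from their own comparisons, which were not used; the tables served for gene names alone.

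Mice were grouped by the labels. In R 4.3.3, edgeR 4.0.16 (glmQLFit and glmQLFTest, TMM factors) was fitted on the 12 mice of each pair of groups over all genes with at least 10 counts summed, with Benjamini-Hochberg adjustment over all genes tested and a threshold of 0.05; differences of effects were fitted as interactions over 4 groups. The script was tested on simulated counts. Alternatives were total-count scaling, upper-quartile factors, filterByExpr, no filter, DESeq2 1.42.0, leaving out each mouse, and leaving out the 11 mice in which at least 10 of 15 hepatocyte genes passed 10 CPM. Levels are CPM with TMM factors over all 60 mice, and averages over a complex use log2(CPM + 1).

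The members, lists and tests were chosen with earlier results of these data known. Named members were a fixed list of catalytic, small and isoform subunits, then in each complex and direction up to 2 called members with the largest absolute log2 fold change among those with at least 10 CPM in a group, and the 3 members with the lowest mean correlation to the rest. Members named to complete a count, such as Ndufa2, Ndufa9, Ndufb2, Ndufb4, Ndufc1 and Ndufc2, the correlation of Atp5l, the gene ratios and the printed promoters were chosen after their values were seen. Replicates are separate mice. Promoters came from RefSeq: 65 members matched by symbol and 2 by synonym.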

Additional observations from a re-analysis of the deposited data

Results flagged for a closer look

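Single mice stood apart from their group by Dixon's ratio, which chance alone gives in about 1 of 20 groups. Mouse 17, which held hepatocyte transcripts (16200 CPM in the summed hepatocyte genes), had the highest mean log2(CPM + 1) of the vehicle Day 0 group in complex I (3.836), II (5.267), III (5.162) and V (5.063), and mouse 57, which held hepatocyte and muscle transcripts (14630 and 4410 CPM), the highest of the 200 mg/kg+TBI group in complex I (5.432), II (6.884), III (6.608), IV (6.204) and V (6.427). The part of these transcripts was not tested. Mouse 2 was the highest of the 50 mg/kg Day 0 group in complex III (4.207), IV (3.958) and V (4.642); its summed erythroid markers, 116200 CPM, were also the highest of that group, and their part was not tested. Mouse 9 of the 100 mg/kg Day 0 group, which also held hepatocyte transcripts (2802 CPM), was the highest in complex II (4.67), and mouse 34 of the 50 mg/kg Day 1 group the lowest in complex I (3.213).

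Gene by gene, 28 of the 79 members had an outlying mouse in the vehicle Day 0 group (27 of them mouse 17), 12 in the 50 mg/kg Day 0 group (10 of them mouse 2) and 59 in the 200 mg/kg+TBI group (58 of them mouse 57). In the other groups the numbers were 7 for vehicle Day 1, 3 for 100 mg/kg Day 0, 5 for 200 mg/kg Day 0, 5 for 50 mg/kg Day 1, 3 for 100 mg/kg Day 1, 4 for 200 mg/kg Day 1 and 3 for vehicle+TBI.

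The effect of BIO 300 differed between days or with TBI in edgeR's test of the difference itself. The Day 1 effect was higher than the Day 0 effect for 24 members and lower for 2 at 50 mg/kg, higher for 44 at 100 mg/kg, and higher for 32 and lower for 3 at 200 mg/kg. The effect of 200 mg/kg with TBI was higher than without TBI for 1 member and lower for 17.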

How the results depend on the processing

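Scaling by total counts moved most counts of called members: 50 higher and 2 lower at 50 mg/kg on Day 0 (median log2 fold change 0.48), 12 and 51 at 100 mg/kg on Day 1 (-0.80), 10 and 54 at 200 mg/kg on Day 1 (-1.25), 7 and 6 for vehicle+TBI against vehicle Day 1, and 5 lower against vehicle Day 0; medians alone moved to -0.18 for 200 mg/kg on Day 0, -0.32 for 50 mg/kg on Day 1 and 0.22 for vehicle Day 1 against vehicle Day 0. Under it the differences of effects gave 3 higher and 52 lower for 50 mg/kg, 8 and 42 for 100 mg/kg, 5 and 55 for 200 mg/kg, and 17 and 3 with TBI. The scaling moved all genes with the members: relative to the median of all genes, the members stood at -0.22 with TMM and -0.21 with total counts at 50 mg/kg on Day 0, 0.99 and 0.96 at 100 mg/kg and 0.71 and 0.71 at 200 mg/kg on Day 1, but at 0.03 and 0.14 for vehicle+TBI against vehicle Day 1 and at -0.25 and -0.02 for the difference with TBI.

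Without the mice with hepatocyte transcripts there were 4 members higher at 50 mg/kg on Day 0 (median -0.033), 4 lower at 100 mg/kg (0.38) and 11 lower at 200 mg/kg on Day 1, 45 lower for vehicle+TBI against vehicle Day 0 (-0.59) and 47 against vehicle Day 1 (-0.66), a median of 0.038 between the vehicle days, and for the differences of effects 4 lower at 50 mg/kg, 4 at 100 mg/kg, 8 at 200 mg/kg, and 18 higher and 28 lower with TBI. For this and the other settings the cause was not tested. With filterByExpr 1 member was higher at 50 mg/kg on Day 1, 2 were lower at 200 mg/kg on Day 1 (median 0.39), 2 lower for vehicle+TBI against vehicle Day 0 and 1 against vehicle Day 1, and 0 lower in the 50 mg/kg difference. Upper-quartile factors gave 0 higher at 50 mg/kg on Day 0, 3 lower at 200 mg/kg on Day 1 and 2 lower for vehicle+TBI against vehicle Day 0. No filter gave 0 higher at 50 mg/kg on Day 0 and 3 lower for vehicle+TBI against vehicle Day 0. DESeq2 gave 12 higher at 50 mg/kg on Day 1, 1 lower at 100 mg/kg on Day 1 and 4 lower for vehicle Day 1 against vehicle Day 0.

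Leaving out 1 mouse at a time gave 0 to 4 members higher (4 without mouse 17) and 13 to 23 lower (13 without mouse 3 or 5) at 50 mg/kg on Day 0, with medians of -0.25 to -0.012. At 50 mg/kg on Day 1 it gave 0 to 7 higher (7 without mouse 36) with medians of -0.02 to 0.03, at 100 mg/kg on Day 1 41 to 52 higher and 0 to 2 lower (2 without mouse 37 or 39) with medians of 0.45 to 0.68, and at 200 mg/kg on Day 1 33 to 38 higher and 2 to 12 lower (2 without mouse 25, 27, 45 or 48, 3 without mouse 26, 44 or 47, 12 without mouse 43) with medians of 0.16 to 0.27. For vehicle+TBI it gave 6 to 11 higher (6 without mouse 50) and 1 to 5 lower (2 without mouse 17 or 54, 3 without mouse 51, 5 without mouse 50) against vehicle Day 0 with medians of -0.33 to 0.17, and 12 to 14 higher and 2 to 14 lower (14 without mouse 51) against vehicle Day 1 with medians of -0.25 to 0.27. For 200 mg/kg+TBI against vehicle+TBI it gave 0 and 0, with medians of -0.67 without mouse 57 to 0.76 without mouse 51. No paired analysis was possible because the animal numbers are unique to a mouse, so no groups share replicate numbers. Members under 1 CPM, such as Ndufa4l2 and, in most mice, Cox6a2, rest on few counts.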

Other observations

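Isoforms of heart, skeletal muscle and brown fat were read unevenly across the mice: Cox6a2 exceeded 1 CPM in 4 mice, Cox7a1 in 14 and Cox8b in 19. Cox6a2, the heart and muscle isoform of the subunit that Cox6a1 encodes in most tissues, exceeded 10 CPM in 1 of 60 mice, at 103 CPM in mouse 57, where summed muscle genes were at 4410 CPM. Cox8b, an isoform of muscle and brown fat, exceeded 10 CPM in 5 mice, at 82.3, 46.1, 20.1, 16.4 and 13.3 CPM in mice 57, 39, 49, 41 and 51, and summed adipocyte genes were at 1264, 653, 887, 327 and 1097 CPM in these mice. Cox7a1, the muscle isoform beside Cox7a2, was highest in the same 5 mice, at 54.4 CPM in mouse 57 and 2.85 to 8.52 CPM in the others. Mouse 41 was not among the mice with hepatocyte transcripts, with 66.6 CPM in summed hepatocyte genes. These genes were chosen after their values had been seen.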
